A study of Drosophila melanogaster with 12 samples.

Results

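Odorant-binding protein (Obp) genes were described across embryogenesis of *Drosophila melanogaster*. The members were all rows of the deposited gene table whose symbol starts with Obp followed by digits, which gave 51 of 14977 genes. Whole embryos were mass-collected in 6 windows of development. T1 covers 0 to 45 min and T2 covers 45 to 90 min, T3 reaches from 1.5 to 6 h, T4 lasts until 12 h, T5 until 18 h and T6 until 24 h. Poly(A) RNA of each timepoint gave 1 mRNA-seq library and 1 miCLIP library, in which fragments bound and crosslinked by an antibody against N6-methyladenosine (m6A) are sequenced. All 12 libraries are untreated embryos with no genotype difference between them, and the strain is named as Canton S in the growth protocol and as yw in the strain entry of the sample records. There was 1 library per assay and timepoint, so no difference below has a replicate check and no p-value is given. Values are levels in FPKM, fragments scaled by gene length and by library, so that they can be compared between genes.

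Odorant-binding proteins are small secreted proteins that carry hydrophobic ligands in extracellular fluid. In insects they are best known from the lymph of olfactory and taste sensilla, where support cells secrete them around the dendrites of the sensory neurons. The classic members have a fold held by conserved cysteine pairs, Minus-C members lack a pair of these cysteines, Plus-C members carry additional ones and double-domain members hold a tandem pair of the fold. Members are also known outside sense organs, for example in the male accessory glands and in glia.

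Reads on genes ranged from 23127677 to 25479287 in the mRNA-seq libraries and from 4251730 (T2) to 14482964 (T3) in the miCLIP libraries. The order of stages was checked against marker genes. The maternal RNA osk, which directs germ plasm assembly, was at 227.6 FPKM in T1 mRNA-seq and 0.719 at T4, and the muscle gene Mlc2 was at 3204 FPKM at T5. The maternal RNAs bcd and nos went from 52.2 and 81.6 FPKM at T1 to 3.66 and 2.11 at T4. In contrast, gcl, also listed as maternal, was at 76.6 FPKM at T1, 35.0 at T4 and 105.7 at T5, its highest value. In T1 mRNA-seq Mlc2 was at 17.9 FPKM and the muscle troponin gene up at 13.5, against 2.02 and 1.35 FPKM at T3, so both markers of late embryos were higher at T1 than at T3. All 3 chorion genes examined, which mark the mother's follicle cells, stayed at or below 1.01 FPKM in every mRNA-seq library.

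Of the 51 Obp genes, 43 had a read in at least 1 library. The other 8, Obp22a, Obp50b, Obp50c, Obp56f, Obp57a, Obp57b, Obp57c and Obp57d, were listed at 0 in all 12 libraries, which is 15.7% of the members against 6.64% of all genes. Of these 8, Obp50b and Obp50c share 1648 exonic bases on the same strand in the release 6 annotation, and Obp57d shares 1488 with Cpr57A, which was also at 0 in all 12 libraries. Reads in shared exons may not be counted for either gene, so these 3 zeros are uncertain. A further 13 members stayed above 0 but below 1 FPKM in mRNA-seq, with at most 21 reads over the 6 libraries. They were Obp50a, Obp51a, Obp56g, Obp56i, Obp57e, Obp73a, Obp83a, Obp83b, Obp85a and Obp19a to Obp19d, and the highest value among them was 0.528 FPKM, of Obp56g at T3. The remaining 30 members (58.8%, against 73.6% of all genes) reached 1 FPKM in at least 1 mRNA-seq library, 18 reached 10 FPKM (35.3% against 58.1%) and 8 reached 100 FPKM (15.7% against 13.0%). A smaller share of the family than of the whole table thus reached 1 and 10 FPKM, and a similar share reached 100 FPKM.

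**Figure D1:**
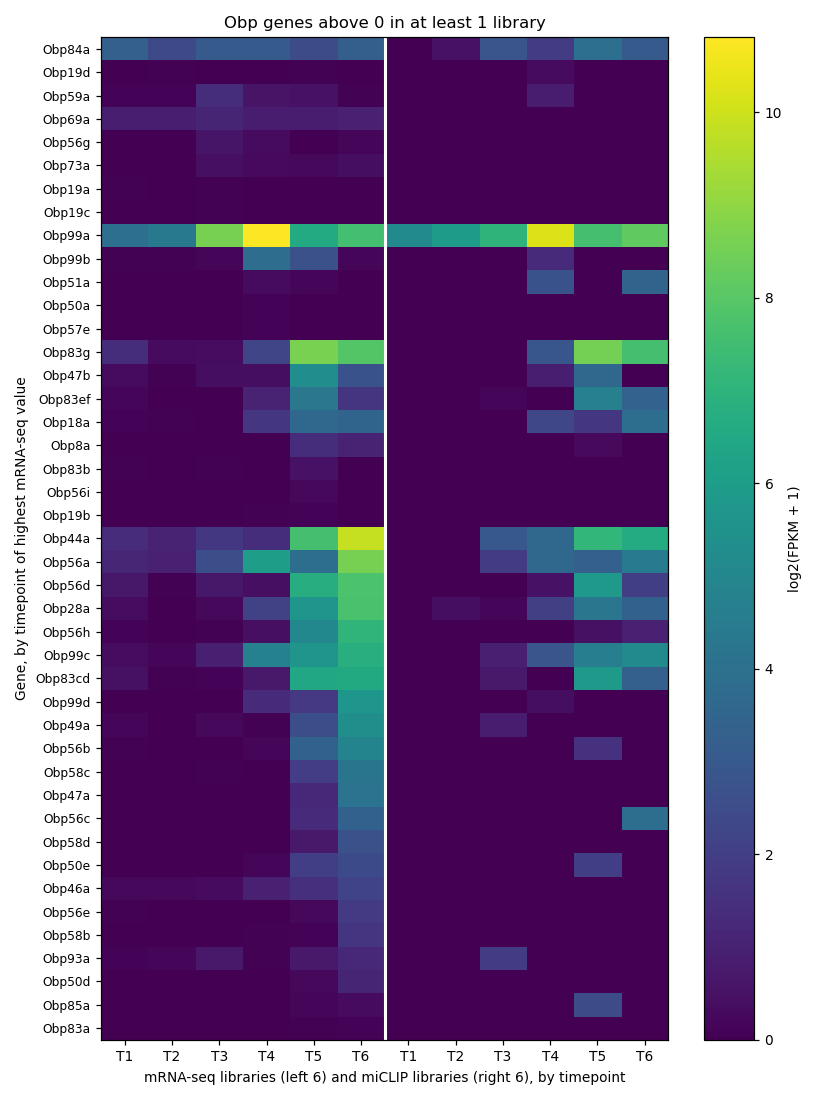
Level of the 43 Obp genes with a read in any library, as log2(FPKM + 1), in the 6 mRNA-seq libraries (left of the white line) and the 6 miCLIP libraries (right), ordered by the timepoint of the highest mRNA-seq value. Most rows are dark until T5, Obp99a and Obp84a are bright from T1 on in mRNA-seq, and fewer rows are bright in miCLIP than in mRNA-seq.

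The number of members at 1 FPKM or more in mRNA-seq rose with embryo age. It was 5 at T1, 3 at T2, 6 at T3, 11 at T4, 23 at T5 and 27 at T6. Only 5 members (9.80%) reached 1 FPKM at T1 or T2, against 47.4% of all genes, and only Obp44a, Obp84a and Obp99a reached it in all 6 mRNA-seq libraries (5.88%, against 42.5% of all genes). The highest mRNA-seq value fell at T6 for 20 of the 30 members that reached 1 FPKM (66.7%, against 33.7% of 11026 genes), at T5 for 5, at T4 for 2, at T3 for 2 and at T1 for 1. The family was therefore mostly a late set of messages. In whole embryos, a lower level from fewer cells of a type and from less RNA per cell cannot be told apart.

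Summed over the family, the mRNA-seq level was 31.2 FPKM at T1, 28.0 at T2, 407.2 at T3, 1922 at T4, 1137 at T5 and 2710 at T6. The sum did not follow the number of members. At T4, 11 members at 1 FPKM or more made 0.422% of the summed FPKM of all genes, and at T6, 27 members made 0.255%. A single member, Obp99a, carried T4, with 93.3% of the family's mRNA-seq level at that timepoint, and it also led at T1, T2 and T3. Obp83g led at T5 with 34.4%, and Obp44a at T6 with 34.1%. At T6 the top 3 members made 57.1% of the family level, so the family was spread over more genes than at T4.

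**Figure D2:**
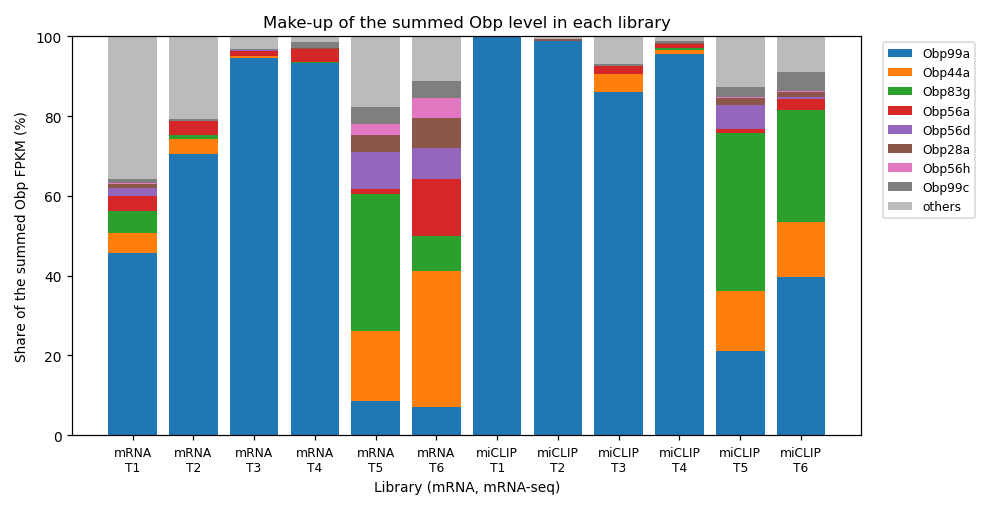
Share of the summed Obp level (percent of the family's FPKM) held by each of the 8 members with the highest mRNA-seq value and by all others, for each of the 12 libraries. Obp99a fills 93.3% of the bar at T4 in mRNA-seq and 95.6% in miCLIP, and gives way to Obp83g and Obp44a at T5 and T6 in mRNA-seq.

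The structural groups took unequal parts in this. All 7 Minus-C members (Obp8a, Obp44a, Obp83g and Obp99a to Obp99d) reached 1 FPKM in mRNA-seq, 6 of them 10 FPKM and 4 of them 100 FPKM. They held 95.7% of the family's mRNA-seq level at T4, 65.6% at T5 and 56.0% at T6. Of the 13 Plus-C members, 9 reached 1 FPKM, 3 reached 10 FPKM and 0 reached 100 FPKM. The Plus-C members held 2.96% of the family level at T6. Both double-domain members, Obp83cd and Obp83ef, reached 10 FPKM, and they held 9.44% of the family level at T5. Of the other 29 members, 12 reached 1 FPKM and 4 reached 100 FPKM, and their share was 20.3% at T5 and 37.5% at T6. These groups were assigned from general knowledge of the family, after the values were seen, and no test was made on them.

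Obp99a, a Minus-C member on chromosome arm 3R, was the most abundant Obp message of the early and middle embryo. Its mRNA-seq level was 14.3 FPKM at T1, 19.7 at T2, 384.8 at T3, 1793 at T4, 97.8 at T5 and 190.8 at T6. It was present in the earliest libraries, increased 19.5-fold from T2 to T3 (95% counting interval 17.7 to 21.5), increased 4.66-fold from T3 to T4 (4.54 to 4.78) and was 18.3-fold lower at T5 than at T4 (17.3 to 19.4). At T4 it ranked 47 among all genes of the library, with 35573 reads. Its level differed from T5 to T6 by a log2 change of 0.96, just under 2-fold. These intervals are exact Clopper-Pearson intervals on the reads recovered from the FPKM values and cover counting error only, here and below.

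Obp44a, a Minus-C member known from glia, was low until T4 and led the family at T6. Its mRNA-seq level was 1.56 FPKM at T1, 1.09 at T2, 2.37 at T3, 1.67 at T4, 197.9 at T5 and 924.1 at T6. The increase was 118-fold from T4 to T5 (84.9 to 170) and a further 4.67-fold to T6 (4.47 to 4.88). Over the same timepoints the glial transcription factor repo went from 17.8 FPKM at T4 to 12.3 at T5 and 8.84 at T6. The glial gene moody went from 9.93 FPKM at T4 to 16.2 at T5 and 11.4 at T6. For nrv2 these values were 106.1, 142.4 and 93.4 FPKM, and for wun2 63.3, 62.5 and 20.1 FPKM. Of the 4 genes listed for glia (repo, moody, nrv2 and wun2), 0 were over 2-fold higher at T6 than at T5, against 16.2% of all genes. Among them 1, wun2, was over 2-fold lower, against 10.5%. With 4 genes counted, no difference from the share of all genes was read from these numbers. Of the 4 genes, wun2 does not mark glia alone, as it was at 43.7 FPKM in T1 mRNA-seq, where repo was at 0.287.

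Obp83g, the third Minus-C member in the lead, peaked at T5. Its mRNA-seq level was 1.65 FPKM at T1, 0.239 at T2, 0.276 at T3, 3.81 at T4, 391.3 at T5 and 239.2 at T6. The increase from T4 to T5 was 103-fold (81.1 to 132), and from T5 to T6 the level changed by -0.71 on the log2 scale. The values of Obp83g and Obp56d at T1, 1.65 and 0.618 FPKM, were above those at T2, 0.239 and 0.0453 FPKM, as those of Mlc2 and up were, and the part of late-embryo RNA in the T1 values was not tested.

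Obp56a rose in separate steps. Its mRNA-seq level was 1.25 FPKM at T1, 0.983 at T2, 5.04 at T3, 63.7 at T4, 13.8 at T5 and 384.5 at T6. It was 12.6-fold higher at T4 than at T3 (10.2 to 15.9), 4.63-fold lower at T5 than at T4 (3.91 to 5.50) and 27.9-fold higher at T6 than at T5 (23.8 to 33.0). Of the 3 members over 2-fold lower at T5 than at T4, it was the only one with its highest level at T6.

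Obp56d and Obp28a, both known as abundant in the adult antenna, were late. Obp56d was at 0.618, 0.0453, 0.627, 0.361, 106.1 and 212.4 FPKM in mRNA-seq from T1 to T6, an increase of 294-fold from T4 to T5 (142 to 732), with 7 reads at T4, and of 2.00-fold from T5 to T6 (1.87 to 2.15). Obp28a was at 0.299, 0, 0.162, 3.21, 48.6 and 206.0 FPKM, an increase of 15.1-fold from T4 to T5 (11.6 to 20.1) and of 4.24-fold to T6 (3.86 to 4.66). Both were at or below 0.627 FPKM through T3.

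Obp56h, which is known to affect male mating behaviour in adults, followed the same order of levels. It was at 0.0828, 0, 0.0525, 0.363, 31.9 and 135.4 FPKM in mRNA-seq from T1 to T6, and 4.25-fold higher at T6 than at T5 (3.79 to 4.76). Obp99c, a Minus-C member, began earlier. It was at 0.299, 0.141, 0.921, 25.6, 49.3 and 113.4 FPKM, with an increase of 27.8-fold from T3 to T4 (17.2 to 48.1) and of 2.30-fold from T5 to T6 (2.08 to 2.55).

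**Figure D3:**
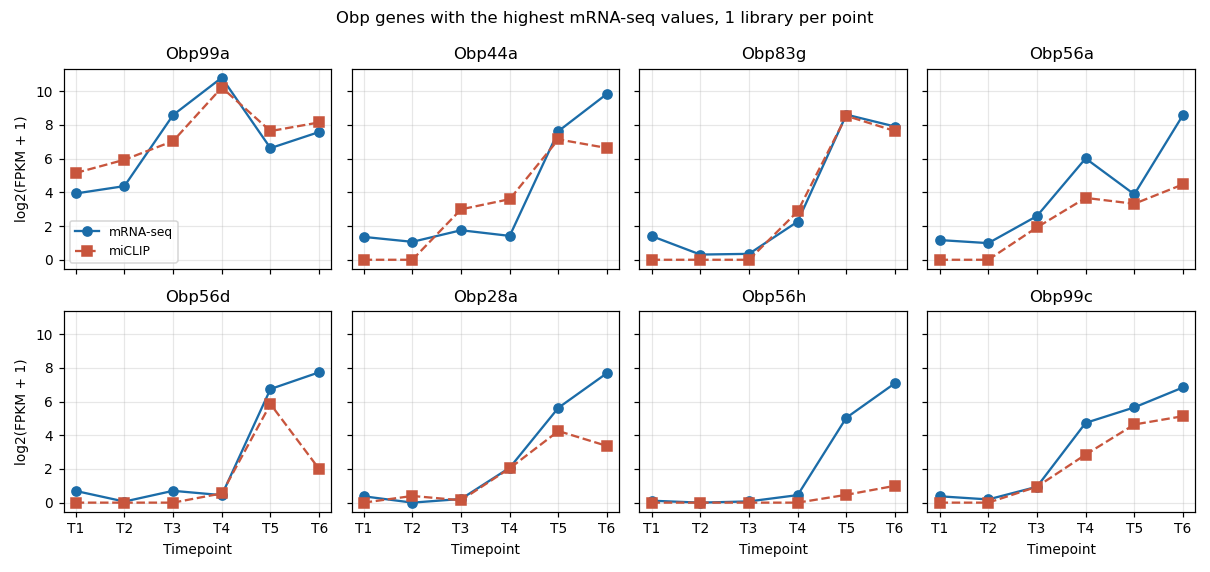
Level, as log2(FPKM + 1), of the 8 Obp genes with the highest mRNA-seq value at each timepoint from T1 to T6, with mRNA-seq as circles on solid lines and miCLIP as squares on dashed lines, 1 library per point and no error bars. Obp99a peaks at T4 in both assays, Obp83g follows the same course in both, and at T6 the miCLIP points of Obp56d, Obp28a and Obp56h lie far below the mRNA-seq points, as that of Obp56h already does at T5.

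Obp84a, known from the adult antenna, stayed nearly level. It was at 8.84, 4.27, 7.40, 7.34, 4.66 and 8.68 FPKM in mRNA-seq from T1 to T6, and it was the only member whose highest mRNA-seq value fell at T1. In the release 6 annotation, 663 of its exonic bases lie opposite the gene Dtwd2. Dtwd2, listed in the table as CG10050, was at 9.08, 4.13, 6.06, 5.89, 5.74 and 10.1 FPKM in the same libraries. Both genes were lowest at T2 and had their highest values at T1 and T6. The paper names a stranded kit for the mRNA-seq libraries, but the strand setting of the counting is not given in the sources used here. Whether reads of Dtwd2 were counted for Obp84a is therefore uncertain.

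Among the remaining members, those at their highest mRNA-seq level at T6 included Obp83cd at 92.7 FPKM, Obp99d at 49.8, Obp49a at 39.0, Obp56b at 28.8, Obp58c at 17.4, Obp47a at 16.5 and Obp56c at 9.29. Obp49a, which in adult taste sensilla takes part in the suppression of sweet responses by bitter compounds, was 7.61-fold higher at T6 than at T5 (6.02 to 9.71). Obp99d was 20.4-fold higher (13.1 to 33.3), whereas Obp83cd differed by a log2 change of 0.06. Obp56b was at 0.0593, 0, 0, 0.149, 9.32 and 28.8 FPKM in mRNA-seq from T1 to T6, and Obp56c was at 0 until T4 and at 1.44 and 9.29 FPKM at T5 and T6. Lower T6 peaks were found for Obp58d (5.35 FPKM), Obp50e (4.44), Obp46a (3.49), Obp56e (2.57), Obp58b (2.18), Obp93a (1.39) and Obp50d (1.14). Obp93a shares 492 exonic bases with CG5793 on the other strand, which was at 47.8 FPKM at T6, so its value is uncertain for the same reason as that of Obp84a.

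The members that peaked at T5 were Obp83g, Obp47b at 38.4 FPKM, Obp83ef at 18.4, Obp18a at 11.2 and Obp8a at 1.66. Obp47b was at 0.241, 0.0442, 0.306, 0.302, 38.4 and 5.56 FPKM in mRNA-seq from T1 to T6. It was 127-fold higher at T5 than at T4 (58.0 to 348) and 6.90-fold lower at T6 (5.24 to 9.25). Its exons lie opposite CG7741 over 611 bases, and CG7741 was at 13.1, 13.1 and 9.39 FPKM at T4, T5 and T6, a much smaller difference than that of Obp47b. Obp83ef was at 0.116, 0, 0, 1.09, 18.4 and 2.11 FPKM in mRNA-seq from T1 to T6. Obp18a was at 0.0669, 0.0368, 0, 2.30, 11.2 and 10.2 FPKM, and so stayed near its peak at T6 where Obp83ef did not. Obp99b, also called turn on sex-specificity and known from the fat body of the adult male head, peaked at T4 at 13.5 FPKM and fell to 5.37 at T5 and 0.107 at T6. Obp59a, which acts in humidity sensing in the adult antenna, peaked at T3 at 1.70 FPKM, where the opposite-strand gene CG30259, with 224 overlapping bases, was also highest at 0.959 FPKM. Obp69a stayed between 0.795 and 1.14 FPKM, highest at T3.

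Read against all genes, the upward steps took in a larger share of the members. A gene was counted here where at least 1 of the neighbouring libraries had 1 FPKM and log2((FPKM + 1)/(FPKM + 1)) passed 2-fold. From T4 to T5, 16 of 23 members were over 2-fold higher, against 34.1% of all genes counted, and 3 were lower (Obp99a, Obp56a and Obp99b), against 9.35%. From T5 to T6, 14 of 28 members were higher, against 16.2%, and 3 were lower (Obp47b, Obp83ef and Obp99b), against 10.5%. The median log2 change of the members was 1.88 from T4 to T5 and 1.09 from T5 to T6, and that of all genes counted was 0.35 and 0.13.

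The earlier steps involved few members. From T1 to T2, 0 of 5 were over 2-fold higher and 1, Obp83g, was lower, against 0.352% and 5.74% of all genes. From T2 to T3, 3 of 6 were higher, against 20.8%, and 0 were lower, against 12.4%. From T3 to T4, 9 of 13 were higher, against 24.9%, and 0 were lower, against 11.2%. When the libraries were scaled to equal sums, the median change of all genes moved from 0.35 to -0.36 for T4 to T5 and from 0.13 to -0.27 for T5 to T6, and the members counted as higher were 16 and 13, and as lower 4 and 4.

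The members were then set beside other genes of chemosensation. Of 8 other soluble carriers, 5 reached 1 FPKM in mRNA-seq. The odorant-binding protein gene lush, whose product takes part in pheromone sensing and which has no Obp symbol in the table, reached at most 0.443 FPKM. Phk-3, of the chemosensory protein family, was at 1504 FPKM at T5 and 419.7 at T6, and a10, of the same family, was at 3.99 FPKM at T6. Of the 8 carriers, 4 reached 1 FPKM at T5 or T6, of which 1 (a10) was over 2-fold higher and 1 (Phk-3) over 2-fold lower at T6 than at T5.

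Few of the chemosensory membrane proteins could be counted. Of 9 chemosensory membrane proteins, 5 reached 1 FPKM at T4 or T5, and 4 of these were over 2-fold higher at T5 than at T4, against 34.1% of all genes. At T5 or T6, 5 reached 1 FPKM, of which 0 were over 2-fold higher at T6, against 16.2%, and 1, Snmp2, was lower, against 10.5%. With 5 genes counted, no difference from the share of all genes was read from these numbers. The odorant co-receptor gene Orco was at 0.158 FPKM at T4, 2.66 at T5 and 2.61 at T6, and the ionotropic co-receptor gene Ir25a at 2.48, 5.18 and 3.11 FPKM. Of 12 genes of sense organ lineages and support cells, 10 reached 1 FPKM at T5 or T6, of which 0 were over 2-fold higher and 1 lower at T6 than at T5. That gene was nompA, which support cells express for the dendritic cap, at 36.2 FPKM at T5 and 7.26 at T6. In miCLIP nompA was at 26.1 and 28.0 FPKM. All 4 cuticle genes examined were over 2-fold lower at T6 than at T5 in mRNA-seq, against 10.5% of all genes. In that assay 14 of 28 Obp members were over 2-fold higher and 3 lower, beside a fall of these secreted products of the epidermis and trachea. In miCLIP at T5 and T6, serp was at 581.3 and 535.1 FPKM, verm at 705.1 and 757.8, Cpr49Ac at 8.03 and 9.96 and Tb at 152.5 and 69.1.

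Members known as abundant in the adult antenna were mixed in level. Of 8 such members, 5 reached 1 FPKM in mRNA-seq, and only Obp56d and Obp28a reached 10 FPKM. Obp83a and Obp83b, abundant in the sensilla of the adult antenna, reached at most 0.0704 and 0.455 FPKM, and Obp19a 0.0485 FPKM. Of 7 members known from the seminal fluid of adult males, 2 reached 1 FPKM (Obp56e and Obp8a) and 2 were at 0 in every library. The highest mRNA-seq value among these 7 was 2.57 FPKM, of Obp56e at T6.

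Members that lie side by side in the genome could differ widely in level. In the release 6 annotation, 29 members lie on chromosome arm 2R, 12 on 3R, 6 on X and 2 each on 2L and 3L. With at most 2 other genes allowed between neighbours, 34 members form 10 clusters. In the Obp56a to Obp56f cluster, 5 of 6 members reached 1 FPKM in mRNA-seq and Obp56f was at 0, with peaks from 2.57 FPKM (Obp56e) to 384.5 FPKM (Obp56a). In the pair Obp56g and Obp56h, the maxima were 0.528 and 135.4 FPKM. In the Obp50a to Obp50e cluster, Obp50d and Obp50e reached 1 FPKM and 2 members were at 0. Those 2, Obp50b and Obp50c, are the pair with shared exons.

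In the other clusters, either all members reached 1 FPKM in mRNA-seq or no member did, although their levels could still differ widely. All 3 members of the Obp57a to Obp57c cluster were at 0 in every library, and of the neighbouring pair Obp57d and Obp57e, known for the taste response to host-plant acids, Obp57e had 1 read and Obp57d, with its shared exons, had 0. All 4 Obp19 members stayed at or below 0.0739 FPKM in mRNA-seq. All 3 members of the Obp83cd, Obp83ef and Obp83g cluster reached 18.4 FPKM or more at T5, and at T6 they were at 92.7, 2.11 and 239.2 FPKM. The exons of Obp83cd and Obp83ef overlap over 92 bases on opposite strands. All 3 members of the Obp99b, Obp99c and Obp99d cluster reached 10 FPKM, and their highest values fell at T4, T6 and T6 in that order.

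In miCLIP, the family was detected less often. Of the 51 members, 26 had 0 reads in every miCLIP library (51.0%, against 18.2% of all genes), and 20 reached 1 FPKM in at least 1 (39.2%, against 76.1%). The number at 1 FPKM or more was 1 at T1, 1 at T2, 5 at T3, 10 at T4, 15 at T5 and 14 at T6. The summed miCLIP level was 34.6, 61.0, 152, 1250, 938 and 713 FPKM from T1 to T6, and thus was highest at T4, whereas the mRNA-seq sum was highest at T6. As a share of the summed FPKM of all genes, the family was highest at T4 in both assays. That share was 0.220% at T4 and 0.0721% at T6 in miCLIP, and 0.422% and 0.255% in mRNA-seq. The highest miCLIP value fell at T5 for 11 of the 20 members (55%, against 28.9% of genes that reached 1 FPKM in miCLIP) and at T6 for 6 (30%, against 21.8%).

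Obp99a, Obp83g and Obp44a led miCLIP as they led mRNA-seq. Obp99a was at 34.6, 60.2, 131.1, 1195, 198.4 and 283.3 FPKM in miCLIP from T1 to T6, with its peak at T4 as in mRNA-seq. Obp83g was at 0 until T3 and then at 6.33, 371.5 and 198.5 FPKM. Obp44a was at 0 at T1 and T2 and then at 6.96, 11.1, 140.5 and 98.3 FPKM, with its peak at T5, whereas its mRNA-seq level was 4.67-fold higher at T6 than at T5.

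The other members with full mRNA-seq values above were at most at 56.7 FPKM in miCLIP. Obp56a was at 0, 0, 2.79, 11.8, 9.01 and 21.2 FPKM in miCLIP from T1 to T6, Obp56d at 0, 0, 0, 0.461, 56.7 and 2.99 FPKM and Obp28a at 0, 0.316, 0.103, 3.11, 18.0 and 9.29 FPKM. Obp56h was at 0 until T4 and at 0.380 and 1.0 FPKM at T5 and T6. Obp99c was at 0, 0, 0.924, 6.22, 23.9 and 34.0 FPKM, and Obp84a at 0, 0.445, 6.14, 2.69, 14.5 and 7.26 FPKM. Of these 6 members, Obp56d, Obp28a and Obp84a had lower miCLIP levels at T6 than at T5, although their mRNA-seq levels were higher at T6.

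The lower members differed in where their miCLIP reads fell. Obp47b was at 0 in miCLIP until T3 and at 0.900, 11.6 and 0 FPKM from T4 to T6, and Obp56b was at 1.91 FPKM at T5 and at 0 in the other 5 libraries. Obp18a was at 0 until T3 and at 3.93, 2.30 and 14.0 FPKM from T4 to T6. Obp83ef was at 0, 0, 0.139, 0, 25.3 and 9.57 FPKM from T1 to T6, and Obp56c was at 14.2 FPKM at T6 and at 0 before. Obp47b and Obp56b thus had no miCLIP reads at T6, where Obp18a and Obp56c had their highest miCLIP values.

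Within T6, miCLIP was below mRNA-seq for most members. Over the 13 members with at least 1 FPKM in both libraries, the log2 of the miCLIP over the mRNA-seq level had a median of -1.71, against -0.16 for all genes counted. Of the 13, 7 were over 2-fold lower in miCLIP, against 27.3% of all genes, and 1, Obp83ef, was over 2-fold higher, against 20.6%. This filter leaves out members with no miCLIP reads. A filter on mRNA-seq reads alone, used next and below, favours genes that are higher in mRNA-seq, and it was chosen after seeing the data. Counted instead over the 24 members with at least 20 mRNA-seq reads and any miCLIP value, 18 were over 2-fold lower, against 36.2% of all genes, 1 was higher, against 17.3%, and the median was -2.69 against -0.42.

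Among the members with at least 1 FPKM in both T6 libraries, the widest gap was that of Obp56h, at 135.4 FPKM in mRNA-seq (1347 reads) and 1.0 FPKM in miCLIP (3 reads). It was 135-fold lower in miCLIP, with a counting interval of 46.2 to 657. Obp56d was 71.1-fold lower (37.4 to 156), with 2124 reads in mRNA-seq and 9 in miCLIP. Obp28a was 22.2-fold lower (15.2 to 33.7), Obp56a 18.1-fold (14.0 to 23.9), Obp83cd 10.3-fold and Obp44a 9.40-fold (8.41 to 10.5). All 6 were at 92.7 FPKM or more in T6 mRNA-seq. In mRNA-seq, Obp56h, Obp28a, Obp56a and Obp44a were over 4-fold higher at T6 than at T5, Obp56d was 2.00-fold and Obp83cd 1.04-fold higher. A gene of low mRNA-seq level cannot show so wide a gap under this filter.

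At T6, 11 of the 24 members with at least 20 mRNA-seq reads had 0 miCLIP reads, against 11.2% of all genes. They were Obp46a, Obp47a, Obp47b, Obp49a, Obp50e, Obp56b, Obp56e, Obp58b, Obp58c, Obp58d and Obp99d. Equal levels in both assays would have given from 7.23 (Obp56e) to 154 (Obp49a) miCLIP reads. That number was below 20 for Obp56e, Obp58b, Obp46a, Obp50e, Obp47b and Obp58d. The share of all genes was not matched for gene length or level. With a floor of 3 reads per library, Obp49a was at least 51.3-fold lower in miCLIP than in mRNA-seq, Obp99d at least 34.8-fold, Obp56b at least 20.1-fold, Obp58c at least 17.6-fold and Obp47a at least 13.9-fold. Of these 11, Obp46a, Obp47b, Obp49a, Obp50e and the 3 Obp58 members are Plus-C.

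Other members had close values in the T6 libraries. Obp99a was at 190.8 FPKM in mRNA-seq and 283.3 in miCLIP, a log2 ratio of 0.57, and Obp83g at 239.2 and 198.5 FPKM, a log2 ratio of -0.27. Obp84a had a log2 ratio of -0.23, Obp18a of 0.42 and Obp56c of 0.56. Obp83ef was 4.53-fold higher in miCLIP (2.76 to 7.52), from 41 miCLIP and 30 mRNA-seq reads, and its mRNA-seq level was 8.71-fold lower at T6 than at T5. The ratio was thus not one value for the family, and among the Minus-C members with at least 1 FPKM in both libraries it ran from 0.57 (Obp99a) to -3.22 (Obp44a).

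**Figure D4:**
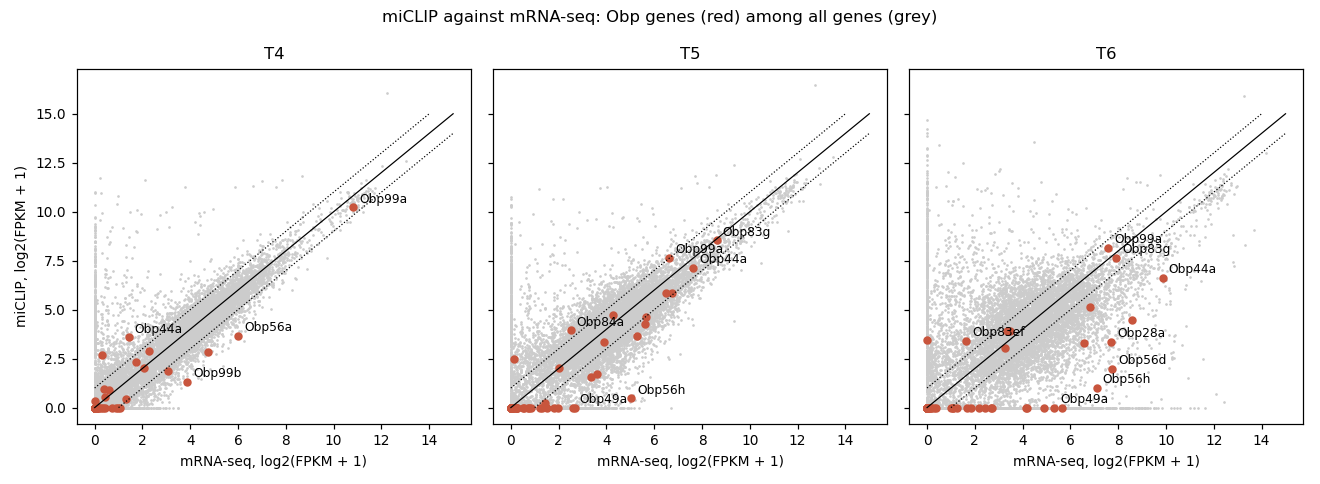
miCLIP against mRNA-seq level, both as log2(FPKM + 1), for all genes (grey) and Obp genes (red) at T4, T5 and T6. The solid line marks equal levels and the dotted lines a 2-fold difference on this scale. At T6 Obp56h, Obp56d, Obp28a and Obp44a lie below the dotted line while Obp99a and Obp83g lie between the lines.

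At T5 the members' ratios were closer to 0. Over 14 members with at least 1 FPKM in both, the median log2 ratio was -0.60, against -0.07 for all genes. Of these, 5 were over 2-fold lower in miCLIP (Obp18a, Obp56b, Obp47b, Obp28a and Obp99c), against 16.5%, and 2 were over 2-fold higher (Obp84a and Obp99a), against 14.3%. Over the 22 members with at least 20 mRNA-seq reads, 13 were lower, against 23.3%, 2 were higher, against 12.4%, and 6 of the 22 had 0 miCLIP reads (Obp46a, Obp49a, Obp56c, Obp58c, Obp99b and Obp99d), against 8.18% of all genes.

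Obp56h already stood apart at T5, with 392 mRNA-seq and 2 miCLIP reads, 83.9-fold lower in miCLIP (23.1 to 695). Obp56d, in contrast, was at 106.1 FPKM in mRNA-seq and 56.7 in miCLIP at T5, 1.87-fold lower. Obp44a had a log2 ratio of -0.49 and Obp83g of -0.07. Obp84a was 3.10-fold higher in miCLIP (2.30 to 4.21) and Obp99a 2.03-fold higher (1.87 to 2.20).

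The T6 libraries were also crossed with T5. The cuticle genes, lower at T6 than at T5 in mRNA-seq, had T6 log2 ratios of 1.73 (Cpr49Ac), 4.47 (Tb), 2.81 (serp) and 2.29 (verm). The part of the T6 mRNA-seq library in the members' T6 ratios was not tested. For its T6 miCLIP library the paper gives a weaker enrichment of A before C-to-T changes, and calls the sites there less certain. Set against the T5 mRNA-seq library, T6 miCLIP was over 2-fold lower for 5 of 13 members with at least 1 FPKM in both, against 19.5% of all genes, and over 2-fold higher for 2, against 14.2%. The share of all genes over 2-fold lower was thus smaller than against T6 mRNA-seq, where it was 27.3%, and the number of members was 5 in place of 7. Over the 22 members with at least 20 reads in T5 mRNA-seq, 14 were lower, against 27.9%, and 2 higher, against 11.7%.

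Before T5 fewer members could be compared. At T4, 4 of 9 members were over 2-fold lower in miCLIP (Obp56a, Obp99b, Obp99c and Obp84a), against 7.26% of all genes, and 1, Obp44a, was over 2-fold higher, against 8.14%. Obp44a at T4 was at 1.67 FPKM in mRNA-seq and 11.1 in miCLIP, from 35 and 52 reads, 6.65-fold higher in miCLIP (4.25 to 10.5). Its exons overlap those of Pabp2 by 205 bases on the opposite strand, and Pabp2 was at 123.6 FPKM in mRNA-seq at T4, so the low values of Obp44a before T5 are uncertain. Obp99a at T4 had a log2 ratio of -0.58. Over the 11 members with at least 20 mRNA-seq reads at T4, 5 were lower in miCLIP, against 9.38% of all genes, and 1 higher, against 6.83%.

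At T3, 1 of 4 members was over 2-fold lower in miCLIP (Obp99a, log2 ratio -1.55), against 6.63%, and 1 higher (Obp44a, 1.24), against 9.96%. At T1 and T2 only Obp99a reached 1 FPKM in both assays, with log2 ratios of 1.22 and 1.56, against 24.8% and 11.8% of all genes over 2-fold higher and 16.3% and 10.8% over 2-fold lower. Counted over members with at least 20 mRNA-seq reads and any miCLIP value, 3 of 6 were lower at T3, against 8.02%, and 1 higher, against 9.14%. At T2, 2 of 4 were lower, against 14.7%, and 1 higher, against 12.0%, and at T1, 4 of 5 were lower, against 30.1%, and 1 higher, against 17.4%. Obp84a, at 8.84 FPKM in T1 mRNA-seq with 294 reads, had 0 reads in T1 miCLIP. Obp99a thus lay above mRNA-seq in miCLIP at T1, T2, T5 and T6 and below it at T3 and T4, where its mRNA-seq level was highest.

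Some miCLIP reads fell on members with few reads in mRNA-seq. Obp51a, at most at 0.232 FPKM in mRNA-seq, was at 5.53 FPKM in miCLIP at T4 (16 reads) and 9.94 at T6 (20 reads), and at 0 in the other 4 miCLIP libraries. Obp85a was at 4.56 FPKM in miCLIP at T5 (21 reads, against 1 in mRNA-seq) and Obp93a at 2.74 at T3 (30 reads, against 14). For Obp85a and Obp93a these were the only miCLIP reads in the 6 libraries.

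Gene length moved with the ratio in the whole table, and the shorter genes had the lower median from T2 to T6. The Obp genes measured here were at most 1104 bases long, by the length recovered from the values. Among all genes with at least 1 FPKM in both libraries, those up to that length had a median log2 ratio of -0.66 at T6, against -0.06 for longer genes, and 40.5% against 23.8% were over 2-fold lower in miCLIP. At T5 the medians were -0.37 and -0.01, with 28.2% and 13.3% over 2-fold lower. At T4 they were -0.11 and -0.06, with 14.6% and 6.40% over 2-fold higher, and at T1 the short genes had the higher median, 0.38 against 0.26. At T6 the members' median was -1.71, below that of the short genes, and the part of gene length in the members' ratios was not tested.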

How the data were processed

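The authors deposited 1 table of FPKM values for 14977 genes in 12 libraries. According to their methods, adaptors were trimmed with Flexbar, miCLIP duplicates removed with pyCRAC, and reads mapped with Subread-align to the fly genome (r5.45), counted with featureCounts and normalized with DEseq. Library factors, gene lengths and the strand setting of the counting are not given in the sources used here. 0 value columns lacked a sample.

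Reads and gene lengths were recovered because FPKM values of a gene are whole multiples of the value of 1 read. On simulated data this was exact for 99.9% of 1154 genes with reads in at least 6 libraries and for 98.8% of 323 with fewer. Log2 values used a pseudocount of 1. Changes were counted over genes with at least 1 FPKM in either library, and miCLIP ratios over genes with at least 1 FPKM in both, past 2-fold. With 1 library per group no test was made. Intervals are exact Clopper-Pearson (95%), from mRNA-seq reads without molecular identifiers. The release 6 annotation served only for names, gene order, arms and overlaps, and no protein or promoter sequence was used.

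Values in the libraries are given for the 8 members highest in mRNA-seq, the 3 highest at T1 or T2, the 3 with the largest and the 3 with the smallest ratio at T5 and at T6, and the 3 highest in miCLIP. Other genes with values of their own illustrate lists. Members and lists were chosen with earlier results of these data known. The structural, antennal and seminal groups, Obp51a and Obp85a were picked after their values were seen. Python 3.11.15, numpy 2.4.6, pandas 2.3.3 and scipy 1.17.1 were used. Alternatives were another pseudocount, scaling, filter and fold.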

Additional observations from a re-analysis of the deposited data

Results flagged for a closer look

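Over members with at least 1 FPKM in both libraries, the log2 ratio of miCLIP over mRNA-seq passed 2-fold in one direction at one timepoint and in the other direction at another for 3 Obp genes. For Obp44a it was 2.18 at T4 and -3.22 at T6, a difference of 5.40. For Obp99a it was 1.56 at T2 and -1.55 at T3, a difference of 3.11. For Obp84a it was 1.45 at T5 and -1.17 at T4, a difference of 2.63. Without that filter Obp83ef would join them, at 1.76 at T6 and at -1.06 at T4, where it had 30 mRNA-seq and 0 miCLIP reads and was at least 2.24-fold lower in miCLIP. Each value rests on 1 library per assay, and the differences between timepoints were not tested. Obp44a had 35 mRNA-seq and 52 miCLIP reads at T4, and its overlap with Pabp2, like that of Obp84a with Dtwd2, leaves the source of some reads uncertain.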

How the results depend on the processing

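A stricter limit of 4-fold gave 9 members higher at T6 than at T5 in mRNA-seq (14 at 2-fold) and 10 higher at T5 than at T4 (16 at 2-fold). For miCLIP over mRNA-seq it gave 0 members higher at T6 (1 at 2-fold), and at T5 0 higher and 0 lower (2 and 5 at 2-fold). Over all genes above 0 in either library, 2 members were higher and 21 lower in miCLIP at T6 (1 and 7 with the filter), and 14 were lower at T5 (5 with the filter). Over members with at least 20 mRNA-seq reads, chosen after seeing the data, 18 were lower at T6 and 13 at T5. Against T5 mRNA-seq, also chosen after seeing the data, 2 members were higher in T6 miCLIP. With libraries scaled to the same sum, 1 member was higher in miCLIP at T5 and the T6 median was -1.61 in place of -1.71. The filter of 1 FPKM in both libraries leaves out members below it in either assay, and the cause of the other differences was not tested. The direction of the described members' changes and ratios was kept in 361 of 363 values under other pseudocounts and scalings, and 41 moved beyond the counting interval. No result here comes from a test, and a comparison of the assays paired over the 6 timepoints, which are stages and not replicates, was not made. Depth was lowest in miCLIP at T2, with 4251730 reads on genes, and 3 reads per library were taken as the limit that 0 reads allow.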
